A study of Mus musculus with 6 samples.

Results

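Tight junctions are the seals between neighbouring cells of a barrier, and the 9 genes described here encode proteins of that seal: the claudins Cldn1, Cldn5 and Cldn12, occludin (Ocln), the scaffold protein ZO-1 (Tjp1), and the junctional immunoglobulin proteins F11r (JAM-A), Jam2 (JAM-B), Jam3 (JAM-C) and Esam. They were taken by symbol from the gene table of each library, and all 9 were present among the 41605 genes of each of the 6 libraries. The choice was by name and used no threshold on measured values. The comparison is between the perineurial cells and the endothelial cells of the mouse sciatic nerve, with Schwann cells and mural cells (pericytes and vascular smooth muscle) beside them, in newborn and adult animals.

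The endoneurium, the space in which the axons run, is shut off from the rest of the body by cells joined with tight junctions. These are the flattened perineurial cells that wrap each fascicle and the endothelial cells of the vessels inside it. Claudins and occludin span the membrane and close the gap between cells, zonula occludens proteins such as ZO-1 tie them to actin, and the JAM proteins and ESAM are adhesion molecules at the same contacts. Claudin-5 is best known from the endothelium of the blood-brain barrier and claudin-1 from epithelia such as the skin.

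Sciatic nerves were taken at postnatal day 1 (P1) or postnatal day 60 (P60) from C57bl/6J mice, with males and females pooled in equal numbers. Animals of both ages carried the same alleles. A Cre transgene active in Schwann cells switches on eYFP there from the reporter ReYFP Tg/+, and βAct-DsRed Tg/+ labels all cells with DsRed through the beta-actin promoter. DsRed-positive cells were sorted, and at P1 part of the cells that also carried eYFP were removed, which sets the number of Schwann cells at that age. From each age 3 independent suspensions were run on the 10x Genomics Chromium system, which counts RNA molecules by unique molecular identifiers (UMIs). The p-values given below therefore measure the spread between suspensions of pooled animals.

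The 6 libraries held 3435 to 4586 cells after filtering and 20203440 to 30334608 UMIs. P60 replicate 3 stood apart from the other P60 libraries, with 16.2% of its cells above 10% mitochondrial counts (2.97% and 4.84% in the others) and 0.214% of its counts in ribosomal protein pseudogenes (0.0490% and 0.0600%). Most of its perineurial cells formed a cluster of 659 cells, of which 601 were its own. Results that rest on this library are therefore also given without it. Within an age, each library shared between 27 and 57 cell barcodes with the others. Clusters were named by marker genes, and the 9 genes and the rest of the tight junction list took no part in the clustering. This gave 1084 perineurial cells at P1 and 2422 at P60, 589 and 1561 endothelial cells, 602 and 847 mural cells, and 2907 and 442 Schwann cells. The summed level of 18 perineurial markers was 2108 to 2230 CPM (counts scaled to 1e+06 UMIs of the class) in the perineurial cells of the P1 libraries and 16923 to 21108 CPM at P60. In endoneurial cells the same markers summed to 1430 to 1456 CPM at P1 and 866 to 1153 CPM at P60. The perineurial class was thus less set apart by these markers at P1 than at P60. The study calls its own assignment of perineurial cells at P1 tentative. Part of these markers are ones the study lists for the same libraries. The summed level of 10 endothelial markers in endothelial cells was 5985 to 6124 CPM at P1 and 5979 to 6237 CPM at P60. Levels are the UMIs of a gene in a class and library on that CPM scale, and are compared between classes and ages for 1 gene at a time. Since the classes are clusters of the same cells, no p is given between classes.

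Cldn1 and Ocln were highest in perineurial cells at both ages, and Cldn5, Jam2 and Esam in endothelial cells at both ages. Cldn12 and Jam3 were highest in Schwann cells at both ages. F11r was highest in endothelial cells at P1 and in perineurial cells at P60. Tjp1 was highest in endothelial cells at P1, and at P60 perineurial and endothelial cells overlapped because of P60 replicate 3. In 17 of the 18 combinations of a gene and an age, every library of the highest class lay above every library of the other 6 classes compared (Schwann, endothelial, perineurial, mural, endoneurial, epineurial and immune cells, less the highest), with Tjp1 at P60 as the exception. The same held for 41.1% of the combinations over the 16273 genes with at least 50 UMIs (48.8% at P1 and 33.4% at P60).

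**Figure D1:**
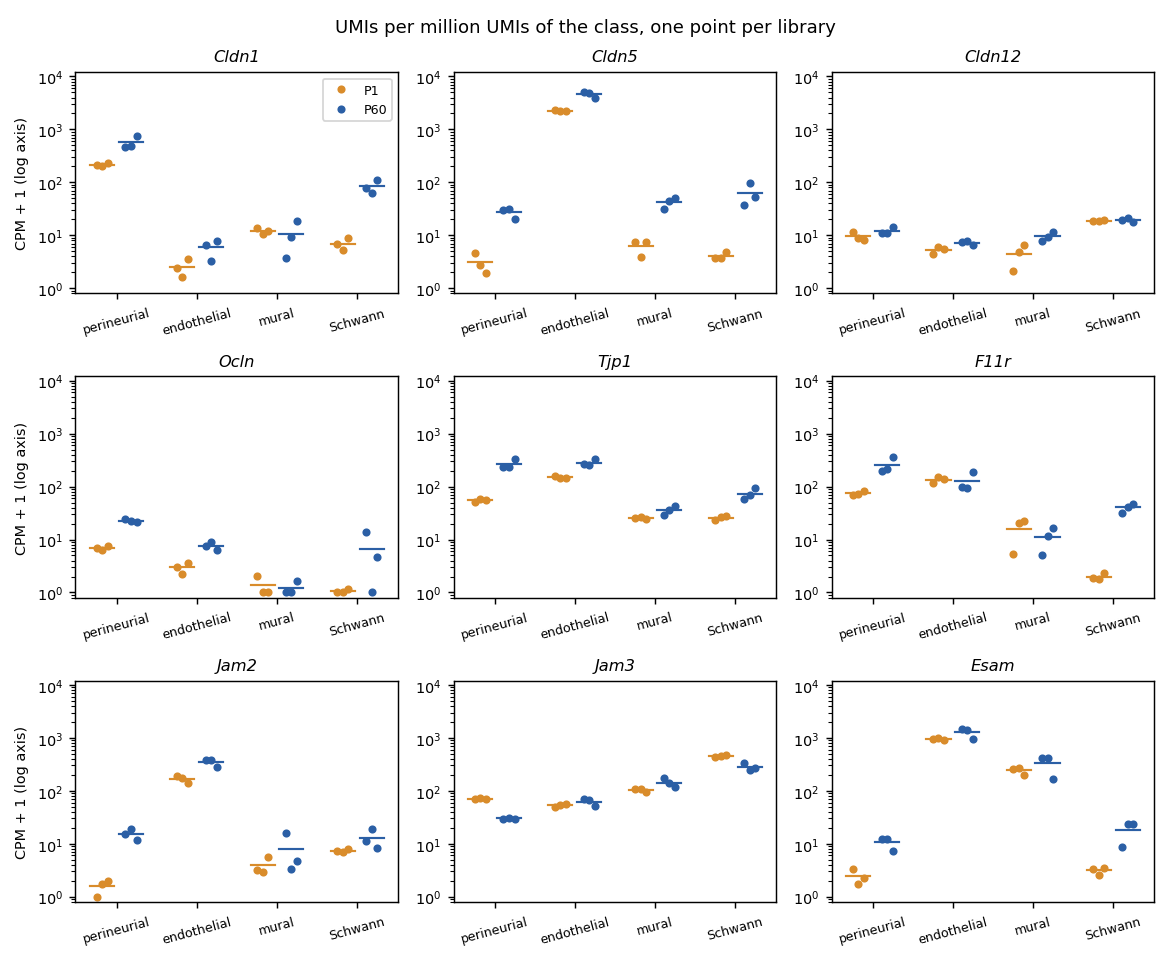
Level of each of the 9 genes (CPM + 1, log axis) in perineurial, endothelial, mural and Schwann cells; each point is 1 library, lines are means over 3 libraries, and P1 is orange and P60 blue. Cldn1 is set apart in perineurial cells and Cldn5 and Esam in endothelial cells at both ages, and F11r changes its highest class between the ages.

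Cldn1 encodes claudin-1, a sealing claudin. The gene (ENSMUSG00000022512) lies on chromosome 16, 26356642 to 26371841, minus strand (GRCm38). Its level in perineurial cells was 212, 198 and 226 CPM in the 3 P1 libraries (212 ± 13.8, SD, n = 3) and 466, 481 and 765 CPM at P60 (571 ± 169, n = 3). All P60 libraries lay above all P1 libraries, with P60 replicate 3 the highest. The fitted log2 change was 1.43 (SE 0.17, edgeR adjusted p = 2.1e-05), and 1.18 without P60 replicate 3.

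Endothelial cells held almost no Cldn1, with 7 UMIs in all at P1 (1.39, 0.615 and 2.64 CPM) and 41 UMIs at P60 (5.62, 2.31 and 6.91 CPM). The perineurial mean was 137 times the endothelial mean at P1 and 115 times at P60, and the libraries of both classes did not overlap at either age. Mural cells stood at 12.9, 9.64 and 10.95 CPM at P1 and 2.71, 8.35 and 17.7 CPM at P60. The fibroblasts of the other nerve layers carried more at P1: endoneurial cells held 32.6 ± 2.54 CPM and epineurial cells 38.8 ± 6.88 CPM (n = 3). In epineurial cells the P60 mean was 9.09 ± 4.97 CPM, with no overlap between the ages, and in endoneurial cells it was 29.0 ± 9.38 CPM, where the ages overlapped.

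Both perineurial clusters of P1 held the gene, at 198, 175 and 206 CPM in one and 230, 229 and 248 CPM in the other, and so did each of those at P60, from 412 to 784 CPM. The share of perineurial cells with a Cldn1 UMI lay in the same order of ages as the level. After each cell was thinned to 1500 UMIs, a Cldn1 UMI was found in 27.9% ± 2.27 of perineurial cells at P1 and 56.2% ± 8.64 at P60 (73.6% and 91.4% without thinning, at a median of 7938 and 6429.5 UMIs per cell). Immune cells, taken as a class that should lack the gene, stood at 0.867% and 1.91% (median 6815.5 and 3723 UMIs). The perineurial shares of the 2 ages did not overlap (two-sided exact permutation test over libraries, p = 0.1, the smallest that 3 against 3 libraries allow).

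Cldn5 encodes claudin-5, the claudin of tight endothelium, and lies on the same chromosome (ENSMUSG00000041378, chromosome 16, 18776847 to 18778262, plus strand). Its level in endothelial cells was 2286, 2226 and 2194 CPM at P1 and 5072, 4866 and 3988 CPM at P60. All P60 libraries lay above all P1 libraries, and the log2 change was 1.06 (SE 0.10, edgeR adjusted p = 5.9e-06). The endothelial mean was 1037 times the perineurial mean at P1 and 176 times at P60.

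The share of endothelial cells with a Cldn5 UMI was not higher at P60. After thinning to 1500 UMIs it was 84.1% ± 3.14 at P1 and 74.9% ± 0.222 at P60 (95.8% and 79.2% without thinning, median 6106 and 4387 UMIs). After thinning to 1000 UMIs it was 72.3% and 71.3%, and the ages overlapped. No order is read from these shares, because they go against the CPM. In immune cells the thinned share was 0.574% at P1 and 4.90% at P60. The P60 endothelial cells fell into clusters with very different Cldn5 levels, described further on.

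Perineurial cells held 19 Cldn5 UMIs at P1 (3.71, 1.80 and 0.955 CPM) and 450 at P60 (29.73, 29.998 and 19.3 CPM). The ages did not overlap, and the log2 change was 3.62 (SE 0.35, edgeR adjusted p = 4.3e-06). A higher level at P60 was also measured in every other class without an endothelial name, from 27.2 CPM in endoneurial cells to 61.4 CPM in Schwann cells. In mural cells the level was 6.47, 2.89 and 6.39 CPM at P1 and 29.8, 44.1 and 49.3 CPM at P60 (log2 change 3.10, SE 0.38, edgeR adjusted p = 0.00010). At P60 the Cldn5 level of these 6 classes was 0.568% to 1.32% of the endothelial level.

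The 250 bases before the RefSeq start of Cldn1 and Cldn5 (GRCm38.p6) are printed because each of these claudins marks 1 of the barriers. Capitals mark the letters CCAAT and GGGCGG, read on both strands (ATTGG and CCGCCC on the other).

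Cldn1 (chr16:26371840-26372089, minus strand): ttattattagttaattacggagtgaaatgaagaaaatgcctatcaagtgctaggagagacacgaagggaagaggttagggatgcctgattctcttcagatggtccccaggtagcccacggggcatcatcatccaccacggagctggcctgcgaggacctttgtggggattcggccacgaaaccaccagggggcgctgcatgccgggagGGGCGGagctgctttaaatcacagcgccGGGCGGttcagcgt

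Cldn5 (chr16:18776597-18776846, plus strand): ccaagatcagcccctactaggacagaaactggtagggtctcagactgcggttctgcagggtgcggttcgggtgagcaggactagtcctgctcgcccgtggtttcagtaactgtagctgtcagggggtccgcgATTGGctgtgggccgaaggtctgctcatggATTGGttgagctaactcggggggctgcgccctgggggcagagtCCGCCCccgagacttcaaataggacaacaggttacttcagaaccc

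The Cldn1 window held GGGCGG at 2 places, and the Cldn5 window held CCAAT at 2 places and GGGCGG at 1. Of 32851 promoter windows of the same length, 33.8% held CCAAT and 32.7% held GGGCGG, so these matches are common and are given as a description of the letters only. Neither window held TATAAA (12.4% of windows), CAGGTG (17.2%) or CACGTG (6.02%). RefSeq windows were matched for 6 of the 9 genes, those of Cldn1, Cldn5, Cldn12, Ocln, Tjp1 and F11r.

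Cldn12 encodes a claudin that lacks the usual scaffold-binding tail (ENSMUSG00000046798, chromosome 5, 5489537 to 5514958, minus strand). It was low everywhere and highest in Schwann cells, at 17.7, 17.4 and 18.6 CPM at P1 and 18.2, 20.3 and 16.8 CPM at P60. The Schwann values rest on 344 UMIs in all at P1 but on only 26 at P60, so the P60 order is uncertain. Among the 4 Schwann cell clusters of P1, the one led by myelin genes (566 cells) held 27.0, 34.5 and 36.8 CPM, above every library of the other 3, which ran from 7.55 to 17.3 CPM. Perineurial cells followed with 10.8, 7.94 and 7.01 CPM at P1 and 10.2, 9.95 and 13.1 CPM at P60. Endothelial cells held 3.49, 4.92 and 4.61 CPM at P1 and 6.42, 6.65 and 5.46 CPM at P60. The 2 barriers did not overlap at either age. No age change of Cldn12 was called in perineurial (0.37 on the log2 scale, edgeR adjusted p = 0.20), endothelial (0.51, adjusted p = 0.26) or Schwann cells (-0.05, adjusted p = 0.90). In mural cells the gene had too few counts to be tested.

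Ocln encodes occludin, a regulator of the seal found with claudins in epithelia and in tight endothelium (ENSMUSG00000021638, chromosome 13, 100496507 to 100552718, minus strand). Perineurial cells held 6.07, 5.41 and 6.69 CPM at P1 and 22.9, 21.0 and 20.4 CPM at P60. The log2 change was 1.82 (SE 0.19, edgeR adjusted p = 7.2e-06). Endothelial cells held 2.09, 1.23 and 2.64 CPM at P1 (9 UMIs) and 6.42, 8.09 and 5.46 CPM at P60 (59 UMIs), a log2 change of 1.76 (SE 0.41, edgeR adjusted p = 0.0048). That call was lost without P60 replicate 1 or without P60 replicate 2, where Ocln had too few counts to be tested. The same held with 50 cells per library and with a clustering total of 100000. The perineurial mean was 3.05 times the endothelial mean at P1 and 3.22 times at P60, with no overlap at either age.

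After thinning to 1500 UMIs, an Ocln UMI was found in 0.741% ± 0.178 of perineurial cells at P1 and 3.29% ± 0.738 at P60, a difference with p = 0.1 by exact permutation, the smallest possible. In endothelial cells the shares were 0.144% and 1.04%, which overlapped (exact permutation p = 0.2), and in immune cells 0.185% and 0%.

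Outside the barriers Ocln was at or near the limit of detection. At P1 endoneurial and epineurial cells held 0 UMIs, which allows a level of up to 0.257 and 0.310 CPM (3 UMIs over the class, counting error only). Mural cells held 1 UMI at each age and Schwann cells 1 UMI at P1 and 7 at P60. In the small P60 Schwann class those 7 UMIs gave 5.58 ± 6.70 CPM, beside 6.66 ± 1.33 CPM in P60 endothelial cells (SD, n = 3). On the CPM scale these classes were therefore not told apart at P60. Within the perineurial cells Ocln differed between clusters. At P1 a cluster of 584 cells held 10.1, 9.61 and 12.6 CPM and another of 500 cells held 1 UMI in all. The first of these carried 9 of the 18 perineurial markers above the naming threshold and the second 5. When only the first was kept at P1, the change of Ocln was 1.04 on the log2 scale instead of 1.82 and was still called.

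At P60 a cluster of 461 perineurial cells held 56.6, 45.8 and 39.3 CPM of Ocln, against 18.4, 17.6 and 19.5 CPM in the main cluster of 1302 cells. Those 461 cells carried 8 of the 18 perineurial markers, had 13.5% of their counts in mitochondrial genes (3.72% in the main cluster), and were led by genes such as Ptch1, with the mural marker Cspg4 and 0 perineurial markers among the 10 leading genes. Without them perineurial Ocln was 19.0, 17.9 and 17.5 CPM at P60 and its change 1.60 (SE 0.20, edgeR adjusted p = 2.7e-05), and the same 8 genes were called in perineurial cells.

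Tjp1 encodes ZO-1, which links claudins, occludin and JAM proteins to the actin cytoskeleton (ENSMUSG00000030516, chromosome 7, 65296165 to 65527781, minus strand). It rose in both barriers. Perineurial cells held 50.5, 56.3 and 55.7 CPM at P1 and 231, 232 and 329 CPM at P60 (log2 change 2.29, SE 0.15, edgeR adjusted p = 1.8e-07). Endothelial cells held 156, 141 and 147 CPM at P1 and 260, 256 and 332 CPM at P60 (0.94, SE 0.13, edgeR adjusted p = 9.3e-05). The endothelial mean was 2.73 times the perineurial mean at P1 with no overlap, while at P60 the classes overlapped and the ratio was 1.07. The P60 overlap came from P60 replicate 3, and within each P60 library endothelial cells held the higher level. Both age changes of Tjp1 were still called without that library. The perineurial share of cells with a Tjp1 UMI after thinning was 6.82% ± 2.08 at P1 and 30.6% ± 6.86 at P60, against 0.185% and 0.922% of immune cells. Mural cells stood at 24.8, 26.0 and 23.7 CPM at P1 and 28.5, 34.6 and 41.7 CPM at P60, which did not pass the test (0.65, edgeR adjusted p = 0.069) but passed without P60 replicate 1 (0.80, edgeR adjusted p = 0.034) and with another clustering seed (0.74, edgeR adjusted p = 0.043). The small annotated genes Gm44794 and Gm44792 overlap Tjp1 on its own strand, and their reads cannot be told apart from those of Tjp1.

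F11r encodes JAM-A, an adhesion molecule of epithelial, endothelial and blood cells (ENSMUSG00000038235, chromosome 1, 171437535 to 171464603, plus strand). Its order between the barriers turned with age. At P1 endothelial cells held 116, 148 and 138 CPM and perineurial cells 69.4, 72.9 and 79.9 CPM. At P60 endothelial cells held 97.5, 93.7 and 189 CPM and perineurial cells 199, 212 and 353 CPM. The classes overlapped at neither age: the endothelial mean was 1.81 times the perineurial at P1, and the perineurial mean 2.01 times the endothelial at P60. F11r rose in perineurial cells (log2 change 1.78, SE 0.20, edgeR adjusted p = 1.1e-05, and 1.4997 without P60 replicate 3). In endothelial cells the change was -0.08 (edgeR adjusted p = 0.81), where P60 replicate 3 stood high at 189 CPM. Without that library the endothelial change was -0.47 (edgeR adjusted p = 0.00055). The thinned share of perineurial cells with an F11r UMI was 10.6% ± 0.812 at P1 and 29.9% ± 7.30 at P60, and that of endothelial cells 16.8% ± 2.67 and 16.1% ± 7.48 (exact permutation p = 0.9). Immune cells held 25.8, 31.2 and 28.1 CPM at P1 and 11.3, 7.18 and 8.20 CPM at P60.

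Jam2 encodes JAM-B, which pairs with JAM-C between cells (ENSMUSG00000053062, chromosome 16, 84774123 to 84825928, plus strand). Endothelial cells held 188, 175 and 140 CPM at P1 and 376, 378 and 282 CPM at P60 (log2 change 1.05, SE 0.15, edgeR adjusted p = 0.00014). Perineurial cells held 5 UMIs at P1 (0, 0.722 and 0.955 CPM) and 250 at P60 (14.2, 18.0 and 10.9 CPM), a change of 4.64 (SE 0.48, edgeR adjusted p = 7.0e-06) from a level close to 0. In endoneurial cells, the fibroblasts between the axons, the level was 4.62, 8.98 and 8.35 CPM at P1 and 120, 93.5 and 77.2 CPM at P60, or 28.1% of the endothelial level. Schwann cells held 6.30, 6.04 and 6.83 CPM at P1 and 10.4, 18.3 and 7.45 CPM at P60, a difference that did not pass the test (0.82, edgeR adjusted p = 0.10). The Jam2 means at P1 and P60 were 1.13 and 7.57 CPM in immune cells, 6.60 and 13.3 CPM in epineurial cells and 2.88 and 7.03 CPM in mural cells.

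Jam3 encodes JAM-C, the partner of JAM-B (ENSMUSG00000031990, chromosome 9, 27097384 to 27155421, minus strand), and was foremost a Schwann cell gene. Schwann cells held 440, 460 and 476 CPM at P1 and 333, 244 and 270 CPM at P60, and the level fell (log2 change -0.80, SE 0.14, edgeR adjusted p = 0.00035). In the same cells the 11 Schwann cell markers summed to 33126 to 33862 CPM at P1 and 21766 to 27193 CPM at P60. The part of this lower marker level in the Jam3 change was not tested. Mural cells came next with 106, 109 and 92.2 CPM at P1 and 171, 138 and 115 CPM at P60 (0.56, SE 0.16, edgeR adjusted p = 0.021); that call did not hold under DESeq2 (adjusted p = 0.060) or with library size scaling (0.081), nor without P1 replicate 1, 2 or 3 or without P60 replicate 1, one at a time.

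Between the barriers the order of Jam3 turned as well, in the direction opposite to F11r. Perineurial cells held 69.7, 70.7 and 67.5 CPM at P1 and 28.9, 29.3 and 28.9 CPM at P60, the only member to fall in this class (log2 change -1.25, SE 0.12, edgeR adjusted p = 5.1e-06). Endothelial cells held 48.1, 52.9 and 56.0 CPM at P1 and 69.8, 64.7 and 50.2 CPM at P60 (0.24, edgeR adjusted p = 0.26). The perineurial mean was 1.32 times the endothelial mean at P1, and the endothelial mean 2.12 times the perineurial mean at P60, with no overlap at either age. Without P60 replicate 3 the endothelial change was 0.38 and passed the test (edgeR adjusted p = 0.015). The P60 endothelial values pool clusters that are described further on. In the cluster with high Slc2a1 the Jam3 mean was 45.8 CPM, above the P60 perineurial values but below the P1 endothelial mean of 52.3 CPM. In the cluster with high Plvap the mean was 97.8 CPM.

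Esam encodes an adhesion molecule of endothelial cells and platelets (ENSMUSG00000001946, chromosome 9, 37528078 to 37538319, plus strand) and was highest in endothelial cells and next highest in mural cells at both ages. Endothelial cells held 966, 970 and 892 CPM at P1 and 1487, 1413 and 950 CPM at P60. The ages overlapped because of P60 replicate 3; the log2 change was 0.45 (SE 0.15, edgeR adjusted p = 0.031), and 0.64 without that library (edgeR adjusted p = 2.1e-07). The call was lost when any other single library was left out. Mural cells held 256, 269 and 199 CPM at P1 and 420, 411 and 166 CPM at P60, with the low value again in P60 replicate 3 (0.53, edgeR adjusted p = 0.14; 0.84 and 2.1e-06 without it). The mural change also passed with no filter on low counts (0.51, edgeR adjusted p = 0.011) and with 50 cells per library (0.81, edgeR adjusted p = 0.026). Perineurial cells stood at 2.36, 0.722 and 1.27 CPM at P1 and 11.5, 11.2 and 6.22 CPM at P60 (2.72, SE 0.42, edgeR adjusted p = 0.00017), and Schwann cells at 2.13 and 17.5 CPM on average. The Esam means at P1 and P60 were 3.15 and 14.6 CPM in immune cells and 2.70 and 10.5 CPM in epineurial cells. In endoneurial cells they were 2.17 and 7.25 CPM, so the higher P60 level was not particular to perineurial cells.

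Counted together, 7 of the 9 genes rose and 1 fell between P1 and P60 in perineurial cells, where 28.7% of the 11649 genes tested rose and 27% fell (55.7% in either direction). In endothelial cells 5 of 8 tested genes rose and 0 fell, where 20.5% of the 10221 genes tested rose and 18.7% fell (39.2% in either direction); Cldn1 had too few counts there. The median change of the members was 1.82 on the log2 scale in perineurial cells (0.03 over all genes) and 0.72 in endothelial cells (0.02 over all genes). Leaving out single libraries moved the endothelial count between 3 and 7, with 3 without P60 replicate 1 or without P60 replicate 2 and 7 without P60 replicate 3, and left the perineurial count at 8. Markers of other cells moved with age in the perineurial cells too: the 11 mural markers summed to 388 to 412 CPM at P1 and 2915 to 3566 CPM at P60, and the 6 fibroblast markers to 35739 to 37961 CPM at P1 and 13737 to 17285 CPM at P60. Their part in the perineurial changes was not tested.

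In mural cells 2 of 6 tested genes rose (Cldn5 and Jam3) and 0 fell, where 18% of the 8420 genes tested rose, 15.9% fell and 33.9% changed in either direction. In Schwann cells 5 of 8 tested genes rose (Cldn1, Cldn5, Tjp1, F11r and Esam) and Jam3 fell, where 25.9% of the 11416 genes tested rose, 23% fell and 48.9% changed in either direction. The P60 Schwann cells had a median of 2372.5 UMIs against 6209 at P1.

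The ages did not overlap for 8 of 9 genes in perineurial cells (63.7% of all genes tested), 5 of 8 in endothelial cells (52%), 3 of 6 in mural cells (47.5%) and 7 of 8 in Schwann cells (57.4%).

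The difference between the age changes of the 2 barriers was tested by the interaction of class and age with the library as a term. It was called for 6 of the 9 genes, against 36.8% of the 12457 genes tested (19% with the higher change in perineurial cells and 17.8% with the lower). The perineurial change was the higher for Jam2 (log2 change 3.59, SE 0.44), Cldn5 (2.59, SE 0.25), Esam (2.28, SE 0.31), F11r (1.91, SE 0.11) and Tjp1 (1.38, SE 0.11), with edgeR adjusted p between 3.2e-15 and 5.1e-07. It was the lower for Jam3 (-1.46, SE 0.15, edgeR adjusted p = 2.0e-09). For Cldn1 (-0.15, SE 0.51), Ocln (0.08, SE 0.65) and Cldn12 (-0.11, SE 0.42) the difference did not pass the test, which does not show that the changes were alike. These SEs are uncertain because the differences lie near 0. Both classes come from the same libraries, and the same 6 genes were called without P60 replicate 3 and when any other library was left out.

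**Figure D2:**
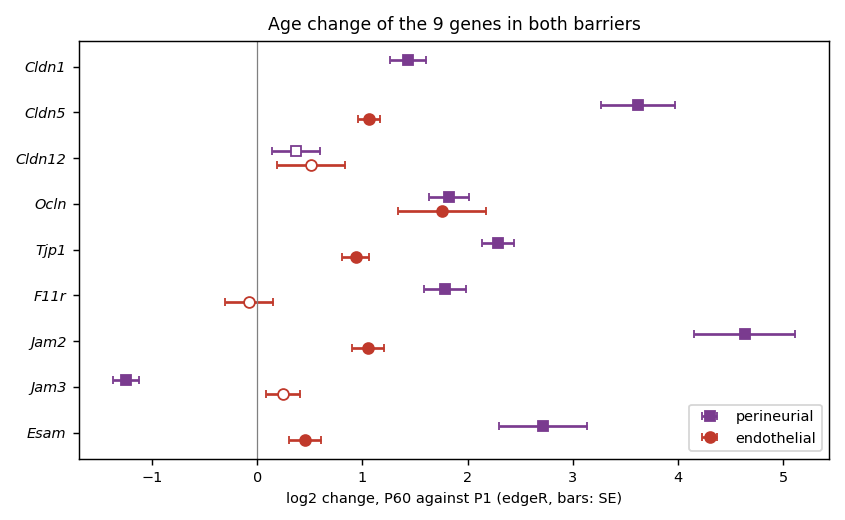
Change of each gene between P1 and P60 (log2 scale, edgeR, 3 libraries per age) in perineurial cells (squares) and endothelial cells (circles). Bars are SE derived from the test statistic, as given under the processing. Open symbols did not pass the test, and Cldn1 was not tested in endothelial cells. Perineurial Cldn5, Jam2 and Esam show the largest changes from very low P1 levels, Tjp1 and F11r lie higher in perineurial than in endothelial cells, and perineurial Jam3 lies below 0.

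The perineurial changes of Cldn5, Jam2 and Esam concerned genes whose level stayed a small part of the endothelial level. The means of these genes were also higher at P60 than at P1 in Schwann, mural, endoneurial, epineurial and immune cells. The summed level of the 10 endothelial markers in perineurial cells was 148 to 163 CPM at P1 and 227 to 272 CPM at P60, with none of them at 0. At P60 the single markers stood in perineurial cells at a median of 1.07% of their endothelial level (range 0.516% to 39.1%), beside 0.568% for Cldn5, 0.749% for Esam and 4.16% for Jam2. At P1 that median was 0.682%. When perineurial cells with a UMI of any endothelial marker were left out, Cldn5 was at 3.41, 2.10 and 2.298 CPM at P1 and 33.1, 34.4 and 23.6 CPM at P60 and was still called (3.48 on the log2 scale). Under the same selection Jam2 had 0 UMIs at P1 and 19.1, 23.2 and 13.3 CPM at P60, and Esam had too few counts to be tested. The cells kept were a small part of the class. They held 2702030 of its 8879970 UMIs at P1. At P60 they held 3271280 UMIs, where the perineurial cells other than the cluster of 461 cells held 14711800. This selection leaves out cells by their marker UMIs and cannot remove UMIs of endothelial origin from the cells kept. The part of RNA from endothelial cells in these changes was not tested.

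**Figure D3:**
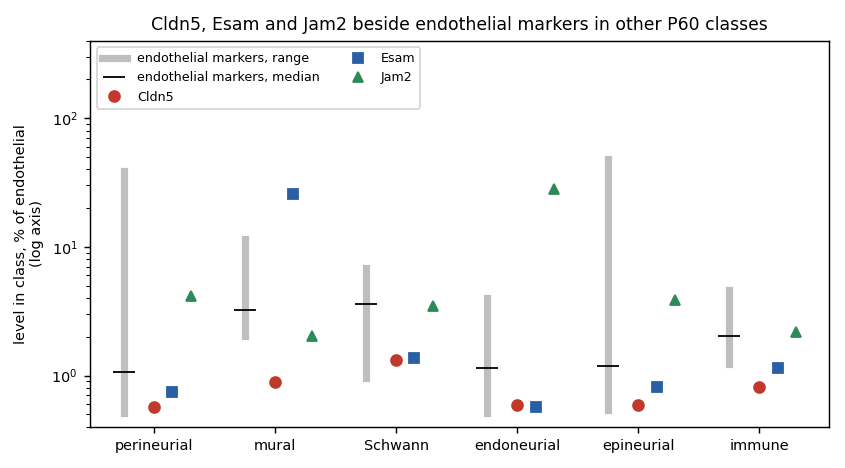
Level of Cldn5, Esam and Jam2 in 6 P60 classes as a percentage of their level in endothelial cells (log axis), beside the median and range of 10 endothelial markers. Cldn5 lies at or below the marker median in each class, Esam lies far above it in mural cells (25.9%), and Jam2 in endoneurial cells (28.1%).

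The same values bear on the Schwann cells of P60. The 18 perineurial markers summed to 349 to 384 CPM in Schwann cells at P1 and 2778 to 3904 CPM at P60, and at P60 stood at a median of 14.9% of their perineurial level (range 9.87% to 37.8%). Schwann cell Cldn1 was 5.79, 4.34 and 7.84 CPM at P1 and 78.0, 61.0 and 110 CPM at P60, or 14.5% of the perineurial level. Schwann cell F11r was 0.852, 0.775 and 1.31 CPM at P1 and 31.2, 40.7 and 46.6 CPM at P60, or 15.5%. Both were close to the median of the perineurial markers. Tjp1, at 27.4% of the perineurial level with 57.2, 67.1 and 93.2 CPM, lay inside the range of the markers as well. The part of perineurial RNA in these values was not tested. Cldn19, the claudin of myelinating Schwann cells, stood at 416, 447 and 450 CPM at P1 and 473, 368 and 306 CPM at P60 in the same cells.

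In endothelial cells the 18 perineurial markers summed to 147 to 176 CPM at P1, with Kcnj13 and Mpzl2 at 0, and to 1301 to 1540 CPM at P60, where they stood at a median of 1.14% of their perineurial level. Cldn1 lay below this at 0.867%, whereas Ocln lay at 31.0%, F11r at 49.7% and Tjp1 at 107%. The 11 mural markers summed to 118 to 166 CPM in endothelial cells at P1 and 1684 to 2329 CPM at P60, and the 6 red cell markers to 4640 to 14341 CPM at P1 and 19.3 to 3830 CPM at P60; their part in the endothelial changes was not tested. When endothelial cells with over 3 perineurial or fibroblast markers were left out, 3 genes were called in endothelial cells instead of 5, since Ocln had too few counts and Esam reached an edgeR adjusted p of 0.053.

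The endothelial cells of P60 formed 2 clusters that split the list. In the cluster with high Slc2a1 (the glucose transporter of barrier endothelium, 916 cells) Cldn5 stood at 6880, 6566 and 5498 CPM. In the cluster with high Plvap and Cd300lg (genes of leaky and of other peripheral endothelium, 645 cells) it stood at 742, 939 and 963 CPM. After thinning, a Cldn5 UMI was found in 100%, 100% and 98.9% of the cells of the first cluster and in 36.6%, 39.9% and 41.5% of those of the second.

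In CPM, Ocln, Tjp1 and Esam followed Cldn5 between these 2 clusters. Ocln was at 9.10, 11.6 and 6.55 CPM in the Slc2a1 cluster and at 0, 0 and 3.28 CPM in the Plvap cluster. After thinning, an Ocln UMI was found in only 6, 7 and 1 cells of the Slc2a1 cluster (2.54%, 2.14% and 0.286%). In the Plvap cluster it was found in 0, 0 and 1 cells (0%, 0% and 0.403%), so the shares of P60 replicate 3 went the other way. Tjp1 was at 314, 307 and 401 CPM against 132, 138 and 194 CPM. Esam was at 1688, 1641 and 1066 CPM against 1005, 885 and 718 CPM. Jam2 and Jam3, which encode binding partners, went the other way: Jam2 was at 332, 340 and 242 CPM in the Slc2a1 cluster and 484, 467 and 362 CPM in the Plvap cluster. Jam3 was at 48.9, 46.0 and 42.6 CPM against 120, 108 and 65.6 CPM. Cldn12 was also the lower in the Slc2a1 cluster (4.55, 6.21 and 4.37 CPM against 10.9, 7.65 and 7.65 CPM). F11r and Cldn1 overlapped. In all, 7 of the 9 genes did not overlap between the clusters, and 7 to 8 when single libraries were left out. Of the 12991 genes with at least 10 UMIs in the 2 clusters, 29.6% did not overlap (11.4% higher and 18.2% lower in the Slc2a1 cluster). These are clusters of the same cells, so no p is given.

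Finer clusters separated the members further. Clustered again without the tight junction genes, the P60 endothelial cells gave 9 clusters. Of these, 6 remained after lymphatic cells (116) and cells with markers of another class (136) were set aside. Over the 6 clusters Cldn5 ran from 84.7 CPM in cells led by Plvap (134 cells) and 170 CPM in cells with Ackr1 (255 cells, a gene of venules) upwards. It reached 2067 CPM in cells with Cd300lg (170 cells) and 7128 CPM in cells with the highest Bmx, a gene of arterial endothelium (210 cells). The Bmx cells also held the most Ocln, 20.05, 19.3 and 29.6 CPM by library, against 6.89 CPM over the 474 cells of the main cluster with Mfsd2a, a lipid transporter of barrier endothelium. The Plvap cells held the most Jam3, at 291, 233 and 231 CPM. Esam ran from 739 to 1698 CPM over the 6 clusters with their libraries pooled, and from 643 to 1738 CPM by library. Over these finer clusters Esam did not keep the order of Cldn5. By library the Bmx cells held 733 to 1406 CPM of Esam and the Plvap cells 916 to 1154 CPM. A further cluster with Mfsd2a held 318 cells, of which 300 came from P60 replicate 3.

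**Figure D4:**
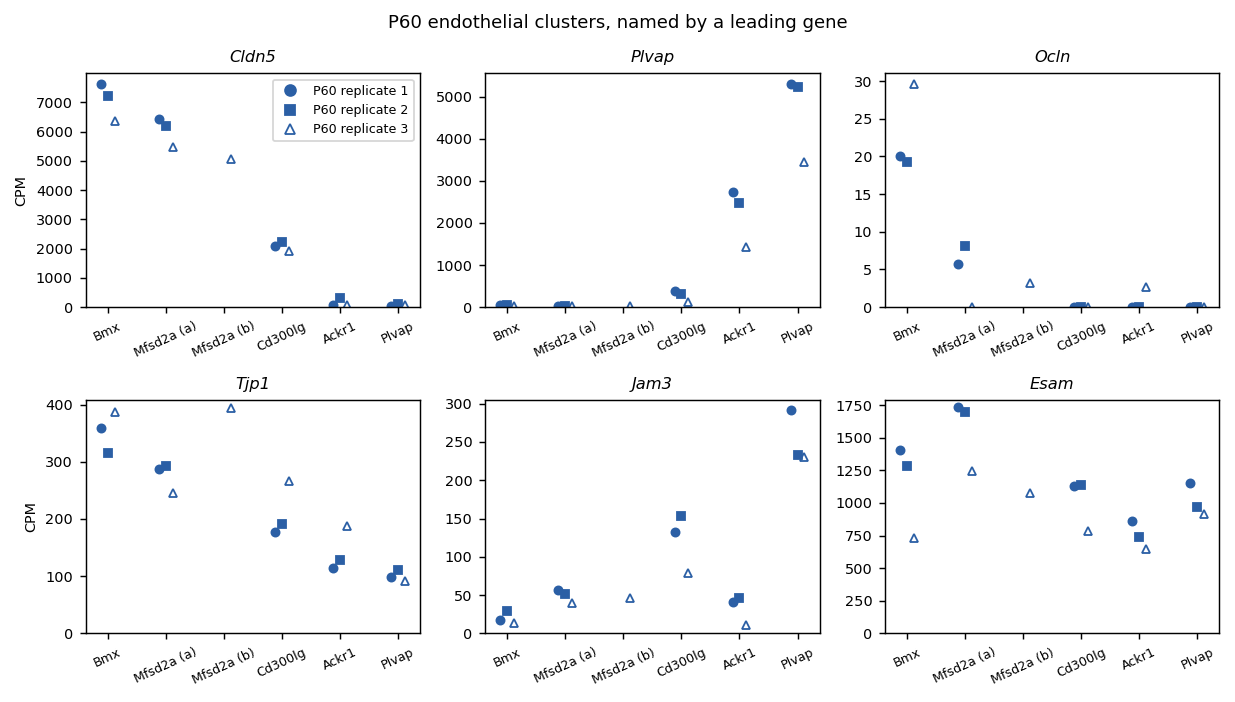
Levels of 5 tight junction genes and of Plvap (CPM, each panel on its own axis) in 6 clusters of P60 endothelial cells, named by a leading gene; each point is a library with at least 20 cells in the cluster. Cldn5 is high in the Mfsd2a and Bmx clusters and near 0 in the Plvap cluster, Ocln is highest in the Bmx cluster, and Jam3 is highest in the Plvap cluster.

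At P1 the split was smaller. A cluster of 412 endothelial cells held 1779 CPM of Cldn5 and a cluster of 177 cells with Bmx held 3185 CPM. Ocln was at 0.323 and 5.401 CPM in these clusters. Lymphatic cells, which were few (36 cells at P1 and 116 at P60), held Cldn5 at 2778 and 3148 CPM and Esam at 177 and 37.9 CPM.

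Of the 75 other tight junction genes in the table, 32 could be tested in endothelial cells, of which 15 rose and 3 fell (20.5% and 18.7% of all genes tested). In perineurial cells 39 could be tested, of which 18 rose and 6 fell (28.7% and 27% of all genes). The median change was 0.63 and 0.43 on the log2 scale, against 0.02 and 0.03 over all genes. In mural cells 7 of 24 rose and 2 fell (18% and 15.9% of all genes), and in Schwann cells 24 of 38 rose and 4 fell (25.9% and 23%). The smaller groups are read against the same shares. Among the scaffold proteins 4 of 12 rose and 2 fell in endothelial cells, and 8 of 14 rose and 2 fell in perineurial cells. Among the polarity proteins 2 of 6 rose and 0 fell in endothelial cells, and 3 of 8 rose and 1 fell in perineurial cells. Among the other claudins 2 of 3 rose in endothelial cells, and 2 of 5 rose and 3 fell in perineurial cells. The interaction was called for 16 of 41 genes, 9 with the higher and 7 with the lower change in perineurial cells, close to the 36.8% of all genes tested (19% and 17.8%).

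For each barrier, the genes of this list with the largest called changes are named. Cldn22, a little studied claudin, was at 5.73, 6.85 and 7.01 CPM in perineurial cells at P1 and 1231, 1153 and 927 CPM at P60 (log2 change 7.41, SE 0.18, edgeR adjusted p = 2.2e-10). The gene lies inside Wwc2 on the opposite strand (chromosome 8, 47824482 to 47825476), and the strand used in counting is not given in the sources used here; Wwc2 changed by 1.07 in perineurial cells and by -0.08 in endothelial cells. In endothelial cells Cldn22 had 0 UMIs at P1 and 9.23, 12.1 and 8.01 CPM at P60, at least 14.9-fold higher than the level that 3 UMIs over the P1 cells would give. This was 0.887% of the perineurial level, beside the median of 1.14% for the perineurial markers. Schwann cells had 1 Cldn22 UMI at P1 and 254.9, 107.7 and 63.4 CPM at P60, or 12.9% of the perineurial level, beside 14.9% for those markers.

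Ildr2, which encodes a protein of tricellular junctions, the points where 3 cells meet, was at 6.40, 5.77 and 7.01 CPM in perineurial cells at P1 and 263, 243 and 291 CPM at P60 (5.37, SE 0.15, edgeR adjusted p = 4.7e-10). Endothelial cells had a mean of 1.55 CPM at P1 and 28.6 ± 1.34 CPM at P60 (4.18, SE 0.31, edgeR adjusted p = 4.8e-07), which was 10.8% of the perineurial level. Lsr (angulin-1), its relative at the same junctions, was the higher in the other barrier. Endothelial cells held 18.1, 26.4 and 19.8 CPM at P1 and 199.9, 192 and 127 CPM at P60 (3.01, SE 0.22, edgeR adjusted p = 4.5e-07). Perineurial cells averaged 0.914 and 0.668 CPM (8 and 12 UMIs). Lsr was not confined to endothelial cells. Immune cells averaged 15.3 CPM at P1 (121 UMIs) and 26.3 CPM at P60 (153 UMIs), the latter 15.2% of the endothelial level. The difference in age change passed the test for Lsr (-3.33, SE 0.89, edgeR adjusted p = 0.0034) but not when P1 replicate 1 was left out (-1.91, edgeR adjusted p = 0.34), and it was lost under 3 other alternatives. For Ildr2 the difference did not pass (1.205, edgeR adjusted p = 0.15).

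Prkcz, an atypical protein kinase C of the polarity complex, rose in both barriers, by 3.28 on the log2 scale in perineurial cells (to 29.8 ± 3.00 CPM) and by 2.59 in endothelial cells (to 12.1 ± 1.56 CPM), and the difference did not pass the test (0.68, edgeR adjusted p = 0.41). Amotl2, an angiomotin that links junctions to actin, was at 34.0, 28.9 and 36.9 CPM in perineurial cells at P1 and 179, 177 and 304 CPM at P60 (2.72, SE 0.21, edgeR adjusted p = 7.2e-07). In endothelial cells its change was -0.16 (edgeR adjusted p = 0.49), and the difference between the barriers was called (2.91, SE 0.17, edgeR adjusted p = 2.3e-15).

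**Figure D5:**
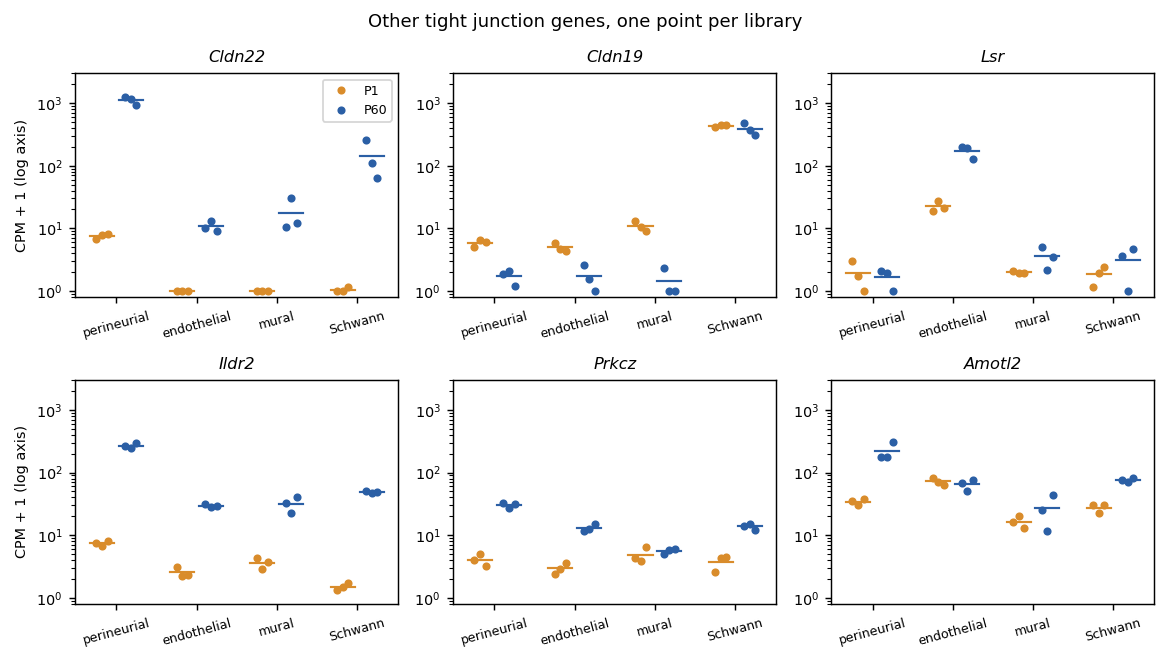
Level of Cldn22, Cldn19, Lsr, Ildr2, Prkcz and Amotl2 (CPM + 1, log axis) in perineurial, endothelial, mural and Schwann cells; each point is 1 library, lines are means over 3 libraries, and P1 is orange and P60 blue. Among these cells Cldn22 and Ildr2 are highest in P60 perineurial cells, Lsr in P60 endothelial cells and Cldn19 in Schwann cells.

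Over the 42 sums of a class in a library (7 classes, 6 libraries), the levels of the genes most like Cldn1 were those of Klf5 (Pearson r = 0.96), Cntfr, Fras1, Dleu7 and Slc16a1 (r = 0.92), and those most like Cldn5 were Plvap (r = 0.98), Ptprb, Sox17, Pecam1 and Mmrn2 (r = 0.97), among 16273 genes with at least 50 UMIs. The points share libraries and their depth, so these are descriptions of log2(CPM + 10) and not tests. Plvap, the gene nearest to Cldn5 across classes, was the gene whose P60 endothelial cluster held the least Cldn5.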

How the data were processed

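Cells of the mouse sciatic nerve were profiled by droplet RNA sequencing in 6 libraries, 3 per age. The authors deposited UMI counts per gene and cell, made with Cell Ranger 2.0.2; the submitters' processing notes name the build GRCm38.p5, while the methods text of the study names a human build, and the annotation release and the strand of counting are not given in the sources used here. No annotation of cells was used. The members and gene lists were chosen with earlier results of these data known.

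Cells with 500 to 5000 detected genes were kept, at a median of 3627 to 6840 UMIs per library. They were clustered by age with Seurat 5.3.0 without the tight junction genes, and fibroblasts, endothelial cells and mixed clusters were clustered again. A cluster was named by at least 3 markers at 2 times the level of the other cells; these thresholds and the rules for clustering again were set after the clusters had been seen. One perineurial cluster of P60 cells had more markers of another class than its own among its 10 leading genes and was also left out as an alternative. Doublets were not removed; leaving out the highest Scrublet scores (scanpy 1.11.5) was an alternative.

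Counts were summed by class and library. The ages were compared within a class by edgeR 4.0.16 (quasi-likelihood test, TMM, filterByExpr, Benjamini-Hochberg adjustment over all genes, threshold 0.05), and the class by age interaction with library as a term. Each SE was derived as the absolute log2 change divided by the square root of the F statistic of that test. It is therefore uncertain where the change is near 0. Shares of cells with a UMI were taken after thinning each cell to 1500 UMIs, leaving out shallower cells (at P60, 9 endothelial, 20 perineurial and 10 immune cells), and compared by exact permutation. Levels at 0 UMIs are limited by 3 UMIs over a class. Floors cover counting error only. The scripts were tested on simulated data. Named were the 9 genes, and of the other list genes the 4 with the largest called change in each barrier. DESeq2 1.42.0, other scalings, filters, clusterings and cell selections were alternatives; those on cells of mixed markers, on single perineurial clusters and on unnamed P1 cells were chosen after seeing the data. Gene positions are those of GENCODE M21 (GRCm38), and promoter windows those of RefSeq (GRCm38.p6).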

Additional observations from a re-analysis of the deposited data

Results flagged for a closer look

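The age change differed between perineurial and endothelial cells, by the test of the interaction, for 6 of the 9 genes and for 2 of the other genes named. The perineurial log2 change exceeded the endothelial one by 2.59 for Cldn5 (2.585 before rounding), 1.38 for Tjp1 (1.375), 1.91 for F11r, 3.59 for Jam2 and 2.28 for Esam, and by 2.91 for Amotl2. It lay below the endothelial change for Jam3 (-1.46) and for Lsr (-3.33). The Lsr difference rests on 8 and 12 perineurial UMIs and no longer passed the test without P1 replicate 1 (-1.91, edgeR adjusted p = 0.34). For F11r and Jam3 the class with the higher level was not the same at P1 and P60, and for Cldn5, Jam2 and Esam the perineurial level stayed a small part of the endothelial one at both ages.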

How the results depend on the processing

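No perineurial call was lost when single libraries were left out (8 to 8 genes), and 6 to 6 were called in Schwann cells and 6 to 6 for the difference between the barriers; the counts ran from 3 to 7 in endothelial and from 1 to 3 in mural cells. With 50 cells per library, 4 genes were called in perineurial cells and 3 for the difference. Without endothelial cells holding over 3 perineurial or fibroblast markers 3 were called in endothelial cells, and with DESeq2 or library size scaling 1 in mural cells. The correlations of same-numbered libraries within a class ran from -0.0132 to 0.183. No values of differently numbered libraries stand beside them, so they do not show whether the numbers mark a pairing. With the replicate block the counts stayed at 5 (endothelial), 8 (perineurial), 2 (mural) and 6 (Schwann), with no call lost or gained. Library size scaling moved the median log2 change over all genes to 0.13 in Schwann cells and -0.10 in mural cells. Another clustering seed lost the call of Cldn1 in Schwann cells. The Lsr difference lost its call with 50 cells per library (-1.01, edgeR adjusted p = 0.81), a clustering total of 100000 (-3.08, 0.14), and without perineurial cells holding an endothelial UMI (-3.25, 0.30). Depth limits Ocln, Cldn12 and the genes near 0 UMIs at P1.

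The values that changed sign were, on the log2 scale, of genes not called. Cldn12 in Schwann cells came to 0.059 with another seed, 0.022 with a clustering total of 100000, 0.17 without the highest Scrublet scores and 0.049 with library size scaling. F11r in endothelial cells came to 0.094 with that total, 0.0058 without the cells of mixed markers, and -0.47 to 0.11 without single libraries. Jam3 in endothelial cells came to -0.40 with 50 cells. Cldn1 in mural cells came to -0.34 without the highest Scrublet scores and -0.89 to 0.50 without single libraries. The difference between the barriers for Cldn1 came to 0.36 with 50 cells, 0.35 with the other total, 0.044 with only the P1 cluster of the most markers, 0.024 with the tight junction genes kept in the clustering, and -0.73 to 0.20 without single libraries. For Cldn12 it came to 0.053 with perineurial cells chosen by marker count, 0.32 without perineurial cells holding an endothelial UMI, and -0.39 to 0.20 without single libraries. For Ocln it came to -0.19 without cells holding UMIs of the other vessel class, -0.010 without cells over 10% mitochondrial counts, -5.61 with the other total (called there, edgeR adjusted p = 0.045), -0.69 with only the P1 cluster of the most markers, -0.15 without the P60 cluster led by other genes, and -0.10 to 0.30 without single libraries. The cause was not tested.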
